A study of Mus musculus with 29 samples.

Results

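The genes described here are the antimicrobial lectins of the Reg family, Reg3b, Reg3g, Reg3a and Reg4, measured by RNA-seq in the colon of 29 mice in 6 models of colitis and 3 control groups. They were chosen by symbol, and all 4 were found among 54532 genes. All 4 were among the 18616 genes tested, which had a mean count of at least 3 over the 29 libraries. Reg3a passed that filter through a single library, mouse 4 of the IL-10 deficiency group, which held 67 of its counts. Reg3b had at least 1 count in 27 libraries, Reg3g in 26, Reg4 in 29 and Reg3a in 8. The other Reg genes, Reg1, Reg2 and Reg3d, had 30, 5 and 55 counts in all libraries together and were not tested.

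Of the 6 models, 3 were compared with untreated wild type Balb/C mice (n = 3), and their own mice are labelled Balb/C too. Dextran sulphate sodium (DSS, n = 3) was given at 3% in drinking water for 5 days, with the colon taken on day 10. Dinitrobenzene sulphonic acid (DNBS, n = 3), 3 mg in 200 µl of ethanol solution, was given rectally. The other of these models was IL-10 deficiency (n = 4). The sources describe the last group in different ways. Its samples are labelled Balb/C with a blocking antibody to IL10. The protocol names 750 µg of antibody to the IL-10 receptor with the colon taken after 4 weeks or at earlier signs of colitis. The study's text names an Il10 deletion, with microbiota, in part from TRUC mice (described below), given by oral gavage. That text also gives C57BL/6 as the strain of the wild type and DSS mice. For DSS it names 5 or 6 days of treatment, with the colon taken on day 7 or 8. The TCT and anti-CD40 models were compared with untreated C57BL/6 Rag1-/- mice (n = 3), which lack T and B cells. In T cell transfer colitis (TCT, n = 3), naive CD4+ T cells were given and the colon was taken after 6 to 8 weeks, and in anti-CD40 colitis (n = 3) 50 µg of an agonist antibody was injected and the colon was taken after 7 days. The protocol calls the recipients of T cells Rag2-/-, whereas their genotype label is C57BL/6 Rag1-/-. For T cell transfer the study's text gives 4 to 6 weeks, and a higher dose as an alternative. TRUC mice (n = 4), untreated Balb/C mice with the genotype Tbx21-/- x Rag2-/-, lack the T cell transcription factor T-bet as well as T and B cells and develop colitis spontaneously, and were compared with untreated Balb/C Rag2-/- mice (n = 3). Ages were not given in the labels. The deposited identifier of TRUC mouse 4 is TRUC_8W, and whether 8W stands for an age was not stated. DSS, DNBS and IL-10 deficiency share their 3 control libraries, as do TCT and anti-CD40, so their comparisons are not independent. Because nothing beyond the label of each library says that replicates came from separate experiments, p values measure the spread between these libraries.

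Total counts ran from 10725564 to 14977094 per library, with a median of 12287039, so that a gene with a count of 0 could have stood at up to 0.179 to 0.314 CPM, the unit of level used here (the count relative to the TMM-scaled library total). This limit covers counting error only. The recombination genes did not bear out every genotype label. Rag2 had 16, 6 and 20 counts in the libraries labelled Rag1-/- control, 48, 99 and 48 in those labelled anti-CD40, and 0 in each of the 3 TCT libraries. Rag1 had 0, 4 and 2 counts in the libraries labelled Rag1-/- control and 33, 27 and 20 in TCT. The TCT libraries thus differed in both genes from the group used as their control, which is called the libraries labelled Rag1-/- control in what follows. Rag2 had 25, 17 and 15 counts in the Rag2-/- controls and 57 to 94 in TRUC, and Tbx21 had 33, 52, 35 and 26 counts in TRUC against 1, 1 and 7 in those controls. In the wild type, DSS, DNBS and IL-10 deficiency libraries Rag1 had 0 to 3 counts and Rag2 0 or 1. Rag2 thus stood above these groups in the libraries labelled Rag2-/- control and TRUC. It also did so in those labelled Rag1-/- control and anti-CD40, and not in TCT. In IL-10 deficiency each library held between 61 and 111 Il10 counts, against 1 to 4 in the wild type mice. Each group name therefore stands for the libraries so labelled. Transcripts of a deleted gene can remain measurable where only part of it is removed, and the exons deleted were not examined.

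Reg proteins are small secreted proteins with a C-type lectin fold. Reg3g and its close relative Reg3b are made by intestinal epithelial cells, including enterocytes and Paneth cells, and limit contact between bacteria and the epithelium. Reg3g acts on Gram-positive bacteria by binding peptidoglycan, and the cytokine IL-22, made by innate and adaptive lymphocytes under the control of IL-23, is a known inducer of both genes through the transcription factor STAT3. Reg4 marks deep crypt secretory cells of the colon, which lie among the stem cells and have been likened to Paneth cells, and is also made by enteroendocrine cells.

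Reg3b (ENSMUSG00000071356, chr6:78370657-78373466, plus strand), Reg3a (ENSMUSG00000079516, chr6:78380709-78383827, plus strand) and Reg3g (ENSMUSG00000030017, chr6:78466269-78468872, minus strand) lie with Reg1, Reg2 and Reg3d in a cluster of 6 Reg genes over 98216 bases of chromosome 6, and Reg4 (ENSMUSG00000027876, chr3:98222156-98236748, plus strand) lies apart (GRCm38, GENCODE M21). Over their coding sequence Reg3b and Reg3g are 76.4% identical, Reg3b and Reg3a 73.5%, and Reg3b and Reg4 54.7%. No stretch of 50 bases of the exons of any of the 4 genes occurred in the exons of another gene, so that reads of that length can be told apart between them. The 178 bases before the start site are shown for the genes that carry the results, Reg3b and Reg3g, which moved together, and Reg4, which did not. The last 24 bases shown for Reg3b are exonic in one GENCODE transcript. The sequences are RefSeq sequences of GRCm38.p6, 5′ to 3′ on the strand of the gene, at chr6:78370707-78370884 for Reg3b, chr6:78468875-78469052 for Reg3g and chr3:98221978-98222155 for Reg4. Capitals mark matches to a STAT motif (TTCNNNGAA) or a TATA box (TATAAA, or TTTATA on the other strand), both strands being searched.
Reg3b: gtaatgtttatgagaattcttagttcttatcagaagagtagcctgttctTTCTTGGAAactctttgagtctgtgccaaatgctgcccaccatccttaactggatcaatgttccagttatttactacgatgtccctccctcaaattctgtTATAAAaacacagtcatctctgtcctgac
Reg3g: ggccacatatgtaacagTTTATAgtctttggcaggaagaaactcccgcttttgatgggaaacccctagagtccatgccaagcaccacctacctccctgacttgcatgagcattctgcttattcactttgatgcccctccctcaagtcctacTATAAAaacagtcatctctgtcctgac
Reg4: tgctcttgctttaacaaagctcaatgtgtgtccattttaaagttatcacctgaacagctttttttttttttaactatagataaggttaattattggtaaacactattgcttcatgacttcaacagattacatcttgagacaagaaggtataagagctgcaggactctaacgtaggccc
In Reg3b the capitals nearer the 5′ end, from -129 to -121 before the start site, are the STAT motif, which 8.3% of 32851 mouse promoters of 300 bases hold, and the other capitals are a TATA box (-29 to -24), held by 13.6%. Reg3g held a TATA box from -27 to -22 and another in reverse from -161 to -156. Reg4 held neither motif in its window. The promoters of Reg3b and Reg3g were 69.9% identical over 296 aligned bases and shared a run of 29 bases from -20 to 9, the start site being base 1, whereas Reg3b and Reg4 were 45.9% identical. A motif match is a description of the letters, and no binding was measured.

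In control colon, Reg4 was abundant and the Reg3 genes were close to the detection limit in Balb/C mice. Reg4 reached 307, 286 and 295 CPM in the 3 wild type mice, where it ranked 477th of 54532 genes by mean level. Reg3b was at 0.0762, 0 and 0 CPM and Reg3g at 0, 0.266 and 0 CPM in the same mice. The Rag2-/- control mice had 0.266, 0.0765 and 0.151 CPM of Reg3b, and 3, 1 and 2 counts. To compare genes, levels were divided by the length of 1 main transcript, 783 bases for Reg3b and 1021 for Reg4. All annotated exons of Reg3b span 1142 bases. In wild type mice these levels were 290 ± 10.3 CPM per kb for Reg4 and 0.0324 ± 0.0562 for Reg3b (SD, n = 3). In bulk colon, here and below, fewer cells that make a gene and less RNA per cell cannot be told apart.

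In Reg3b, the libraries labelled Rag1-/- control differed past the threshold from the wild type controls and not from the Rag2-/- controls. They held 7.05, 0.368 and 28.7 CPM, so that all 3 lay above the wild type and the Rag2-/- mice, but the highest was 77.8 times the lowest. Without overlap, 17.9% of all genes tested were higher against the wild type mice and 12.1% against the Rag2-/- mice. Against wild type mice the fitted log2 difference in Reg3b was 8.42 ± 2.37 (SE), with an adjusted p of 0.0207 by edgeR's quasi-likelihood test, in a comparison in which 4.77% of all genes tested were called higher and 6.18% lower. The control group held 1 count, and the ratio of the counts was 457 (95% interval 81.5 to 18081, counting error only). Reg3g (5.06 ± 2.13, adjusted p = 0.138 by edgeR) and Reg4 (1.05 ± 0.59, adjusted p = 0.298) did not pass the threshold. Against the Rag2-/- mice, Reg3b had the highest fitted log2 difference of all 18616 genes, 6.13 ± 1.87, with an adjusted p of 0.16 by edgeR, where 0.0698% of genes were called higher and 0.0537% lower. Between the Rag2-/- and the wild type mice Reg3b (2.29, adjusted p = 0.858), Reg3g (1.71, adjusted p = 0.83) and Reg4 (0.58, adjusted p = 0.649) did not pass by edgeR, in a comparison with 3.25% of genes called higher and 4.86% lower. Strain, genotype and label differ together between the Rag1-/- labelled mice and the Balb/C controls and cannot be told apart. Leaving out mouse 4 of the Rag1-/- labelled group, or any one wild type mouse, ended the call against wild type.

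**Figure D1:**
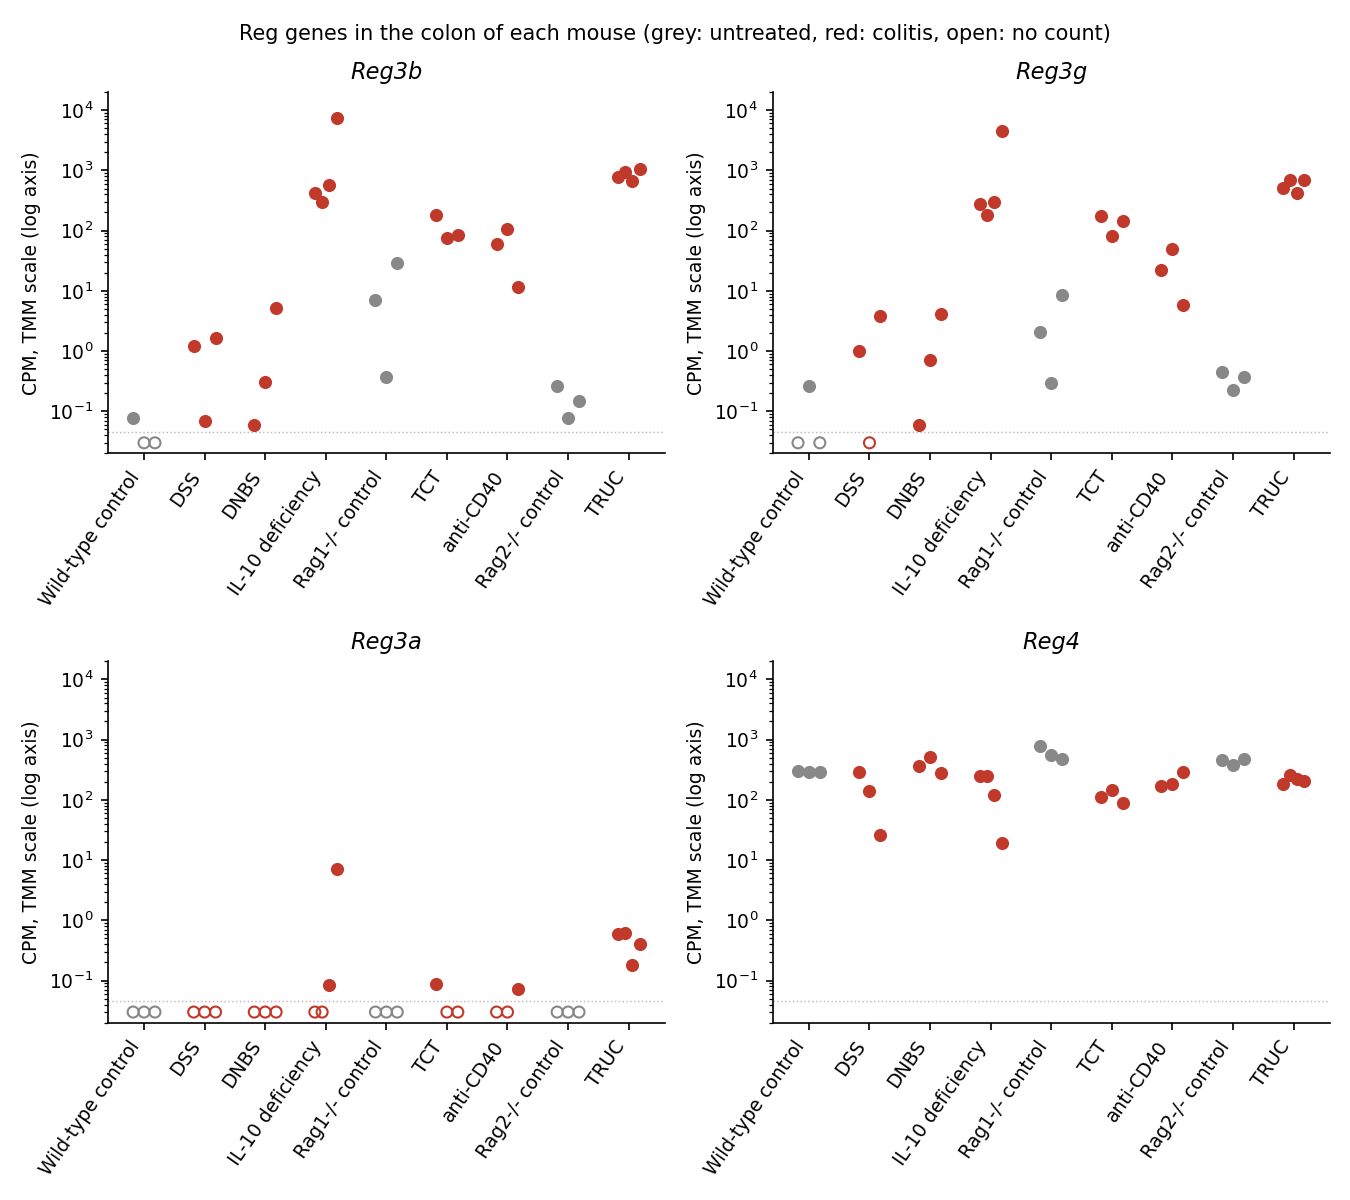
CPM (TMM-scaled, logarithmic axis) of the 4 Reg genes in each of the 29 mice, 1 panel per gene, with groups along the horizontal axis, untreated mice in grey, colitis in red and mice without a count as open circles. Reg3b and Reg3g lie between 183 and 7511 CPM in every IL-10 deficiency and TRUC mouse and below 6 CPM in every DSS and DNBS mouse, while Reg4 lies between 19.4 and 789 CPM in all mice.

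Reg3b and Reg3g were highest in TRUC and IL-10 deficiency. In TRUC, Reg3b reached 785, 943, 669 and 1068 CPM, from a total of 41666 counts. All 4 mice lay above all 3 controls, and the mean was 866 ± 175 CPM (SD, n = 4) against 0.164 ± 0.0952 CPM (SD, n = 3). The control group held 6 counts, so the size of the change is given as the ratio of the counts, 5441, with a 95% interval of 2499 to 14826 for counting error. The fitted log2 fold change was 12.32 ± 1.85 (SE, adjusted p = 2.01e-05 by edgeR's quasi-likelihood test), rank 2 from the highest of all genes tested. Reg3g reached 515, 695, 424 and 692 CPM, above all controls, which stood at 0.443, 0.230 and 0.378 CPM. Its fitted log2 fold change was 10.67 ± 1.62 (SE, adjusted p = 2.19e-05 by edgeR). Reg3b and Reg3g were thus 2 of 4 members called higher in TRUC, in which 22.4% of all genes were called higher and 23.4% lower, and 28.8% were higher without overlap.

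Reg3a was detected at low level in every TRUC mouse, with 8, 7, 2 and 5 counts (0.590, 0.623, 0.183 and 0.407 CPM), and in none of the Rag2-/- libraries. It was at least 5.75-fold higher against the limit of 3 counts over the control group, and did not pass the threshold (adjusted p = 0.148 by edgeR). Reg4 was lower in every TRUC mouse, with 182, 255, 221 and 202 CPM against 466, 380 and 482 CPM in the controls. The mice did not overlap, and the fitted log2 fold change of -1.04 ± 0.55 (SE) had an adjusted p of 0.122 by edgeR, in a comparison where 29.2% of genes were lower without overlap. By edgeR on the 2 groups alone (adjusted p = 2.88e-05 for Reg4 and 0.00241 for Reg3a) and by DESeq2 (1.28e-14 and 0.00174) both passed.

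In IL-10 deficiency Reg3b and Reg3g were far above the controls in all 4 mice, with 1 mouse far above the others. Reg3b was at 421, 303, 570 and 7511 CPM in mice 1 to 4, from 4998, 2920, 6641 and 71839 counts, and the wild type controls together held 1 count. Mouse 4 stood 17.4 times above the mean of the other 3. The ratio of the counts to the controls was 81598 (95% interval 14645 to 3222990, counting error only), and the fitted log2 fold change was 15.95 ± 2.17 (SE, adjusted p = 4.15e-06 by edgeR), the highest of all genes tested. Without mouse 4 the change in Reg3b was 13.59 (adjusted p = 1.85e-06 by edgeR) and the mean was 432 ± 133 CPM (SD, n = 3). Reg3g followed with 275, 183, 298 and 4487 CPM against 0, 0.266 and 0 CPM. It had a fitted log2 fold change of 13.56 ± 1.85 (SE, adjusted p = 4.23e-06 by edgeR), which was 11.17 without mouse 4. In this comparison 27.2% of all genes were called higher and 26.1% lower, and 27.6% were higher and 28% lower without overlap between the mice.

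Reg3a in IL-10 deficiency came almost wholly from mouse 4. Its counts were 0, 0, 1 and 67, or 0, 0, 0.0858 and 7.01 CPM, and the wild type mice had 0. The mice overlapped with the controls. The group was at least 21.4-fold above the limit of 3 counts over the controls, and the call (adjusted p = 0.0201 by edgeR) rested on that mouse, without which the gene fell below the filter. Reg1 and Reg3d also had their highest counts there, 18 of 30 and 19 of 55. Mouse 4 also held 351 CPM of the summed markers of small intestine, against 47.5 to 74.2 CPM in mice 1 to 3. Of its 10 markers, Fabp2 at 233, Slc10a2 at 45.6 and Alpi at 31.9 CPM were the highest, whereas the enterocyte gene Apoa4 was at 0, lactase (Lct) at 0.314 and sucrase-isomaltase (Sis) at 1.88 CPM. Their part in the level of the Reg genes was not tested. The summed colon epithelium markers stood at 23457 CPM in mouse 4 against 14150 to 17323 CPM in mice 1 to 3. The summed enteroendocrine markers were 106 CPM in mouse 4 and 197 to 356 CPM in mice 1 to 3, and the summed goblet and deep crypt secretory markers 8613 CPM in mouse 4 and 5036 to 7469 CPM in mice 1 to 3. Reg4 was lowest in mouse 4, at 19.4 CPM, against 248, 246 and 119 CPM in mice 1 to 3. All 4 mice lay below the wild type mice, with a fitted log2 fold change of -0.90 ± 0.55 (SE, adjusted p = 0.168 by edgeR).

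Levels of the Reg3 genes were intermediate in TCT and anti-CD40 colitis. In TCT, Reg3b reached 182, 74.7 and 84.4 CPM and lay above the controls in every mouse, with a mean of 114 ± 59.5 CPM (SD, n = 3) against 7.05, 0.368 and 28.7 CPM in the controls. The log2 fold change was 3.25 ± 1.14 (SE, adjusted p = 0.0325 by edgeR), and leaving out control mouse 2, control mouse 3 or TCT mouse 1 ended the call. Reg3g reached 175, 80.2 and 144 CPM against 2.11, 0.295 and 8.69 CPM, again without overlap. Its log2 fold change was 5.19 ± 1.21 (SE, adjusted p = 0.00207 by edgeR). The size of both changes depended on the control. With the wild type mice as control they were 11.67 for Reg3b and 10.25 for Reg3g, with the Rag2-/- mice 9.39 and 8.54, and with all 9 untreated mice 4.84 and 6.64, each past the threshold by edgeR.

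Reg4 fell in TCT. The TCT mice held 111, 147 and 89.3 CPM and the libraries labelled Rag1-/- control 789, 563 and 479 CPM. No TCT mouse reached the lowest control, and the log2 fold change of -2.40 ± 0.62 (SE) had an adjusted p of 0.00465 by edgeR. The pooled level in the controls was 5.25 times that in TCT. When the wild type mice served as control instead, the change was -1.35 with an adjusted p of 0.0879. In TCT, 16.1% of all genes were called higher and 14% lower, beside 2 of 4 members higher (Reg3b and Reg3g) and 1 lower (Reg4), and 21.4% were higher and 21.7% lower without overlap. In TCT the libraries differed from their controls in Rag1 and Rag2 as well, and the part of this in the Reg changes was not tested.

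In anti-CD40 colitis, Reg3b was at 60.9, 108 and 11.8 CPM and overlapped with the controls, whose highest mouse stood at 28.7 CPM. The log2 fold change was 2.33 ± 1.10 (SE, adjusted p = 0.133 by edgeR). Reg3g was at 21.9, 49.6 and 5.81 CPM and overlapped as well (2.82 ± 1.14, adjusted p = 0.0784 by edgeR). Reg4 was at 168, 180 and 287 CPM, below every control (-1.53 ± 0.60, adjusted p = 0.07 by edgeR), in a comparison where 10.7% of genes were called lower and 20.4% were lower without overlap. By edgeR 0 of 4 members passed the threshold, 3 of them at an unadjusted p under 0.05, and by DESeq2 Reg4 alone did (adjusted p = 7.71e-10). Of all genes, 10.9% were called higher. Control mouse 4 decided both Reg3 values, since without it the changes were 4.04 for Reg3b (adjusted p = 0.0485 by edgeR) and 4.45 for Reg3g (adjusted p = 0.0458). Reg3g also passed without anti-CD40 mouse 8 (3.31, adjusted p = 0.042 by edgeR).

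In the chemical models the Reg3 genes stayed within a few CPM. DSS mice held 1.20, 0.0684 and 1.68 CPM of Reg3b and 1.01, 0 and 3.84 CPM of Reg3g. In both genes 1 mouse lay among the wild type mice, and the log2 fold changes of 4.80 ± 3.41 and 3.84 ± 2.39 (SE) had adjusted p values of 0.289 and 0.223 by edgeR. DNBS mice held 0.0597, 0.310 and 5.12 CPM of Reg3b and 0.0597, 0.698 and 4.09 CPM of Reg3g, with the highest values in mouse 16. The log2 fold changes were 5.61 ± 3.09 and 3.79 ± 2.42 (SE, adjusted p = 0.266 and 0.343 by edgeR). Reg4 varied 10.9-fold between DSS mice, at 288, 139 and 26.3 CPM, and was 368, 506 and 282 CPM in DNBS. Neither was called (-0.97 ± 0.59, adjusted p = 0.214, and 0.38 ± 0.59, adjusted p = 0.727, both by edgeR). In DSS 17.7% of all genes were called higher and 16.3% lower, in DNBS 3.95% and 2.21%, and 0 of 4 members were called by edgeR in either model, 0 at an unadjusted p under 0.05. By DESeq2, Reg3b in DSS (adjusted p = 0.00883) and Reg3g in DNBS (adjusted p = 0.041) were called.

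**Figure D2:**
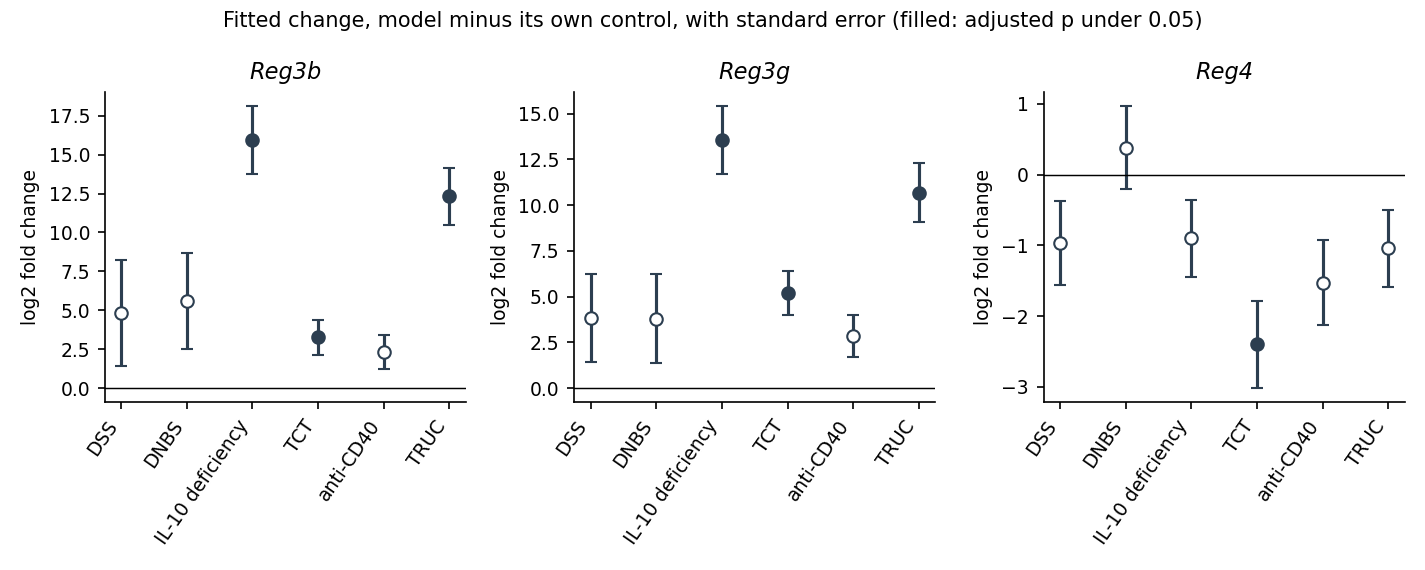
Fitted log2 fold change of Reg3b, Reg3g and Reg4 in the 6 models against each model's own control, with the standard error, derived from the F statistic, as bars and filled points for an adjusted p under 0.05 by edgeR. Reg3b and Reg3g are filled in IL-10 deficiency, TCT and TRUC, and Reg4 is filled in TCT, where it lies at -2.40.

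The change differed between the 6 models for Reg3b (F = 25.5, adjusted p = 5.28e-07 by edgeR) and Reg3g (F = 22.0, adjusted p = 1.42e-06), as for 60.5% of all genes tested, and not past the threshold for Reg4 (F = 2.88, adjusted p = 0.0569) or Reg3a (F = 3.22, adjusted p = 0.0605). Of the 15 pairs of models, the change differed in 6 for Reg3b, in 5 for Reg3g, in 2 for Reg3a and in 1 for Reg4. The 2 pairs for Reg3a, DSS and DNBS against IL-10 deficiency, rest on the 67 counts of IL-10 deficiency mouse 4. Reg3b changed more in IL-10 deficiency than in TCT by 12.69 on the log2 scale (adjusted p = 0.00119 by edgeR, 19.9% of genes called) and than in anti-CD40 by 13.61 (adjusted p = 0.00508, 3.15% called). It changed less in anti-CD40 than in TRUC (difference -9.98, adjusted p = 0.0242, 1.1% called) and less in TCT than in TRUC (-9.06, adjusted p = 0.00767, 9.22% called). It changed less in DSS than in IL-10 deficiency (-11.15, adjusted p = 7.49e-06, 49.8% called) and less in DNBS than in IL-10 deficiency (-10.34, adjusted p = 6.72e-05, 33.9% called). Reg3g passed in the same pairs except TCT against TRUC (adjusted p = 0.0777). IL-10 deficiency and TRUC differed in Reg3b by 3.63 (adjusted p = 0.726, 6.99% called), which does not show that they were alike. For Reg4 the pair past the threshold was DNBS against TCT (2.78, adjusted p = 0.0415 by edgeR, 8.32% called). In the remaining pairs, the share of genes called was 22.6% for DSS against DNBS, 7.83% against TCT, 13.3% against anti-CD40 and 17.4% against TRUC, 1.38% for DNBS against anti-CD40 and 5.13% against TRUC, and 18.4% for TCT against anti-CD40. For Reg3b the change did not differ past the threshold between DSS and TRUC (-7.51, adjusted p = 0.72 by edgeR) or between DNBS and TRUC (-6.71, adjusted p = 0.783). For Reg3g these values were -6.84 (adjusted p = 0.429 by edgeR) and -6.88 (adjusted p = 0.499). All these differences between models include the controls, which had few or no counts in Balb/C mice.

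By median level the groups fell, for Reg3b, in the order TRUC (864 CPM), IL-10 deficiency (496), TCT (84.4), anti-CD40 (60.9), the libraries labelled Rag1-/- control (7.05), DSS (1.20), DNBS (0.310), Rag2-/- (0.151) and wild type (0). Among neighbours, IL-10 deficiency was above TCT (adjusted p = 0.0102 by edgeR) and the Rag1-/- labelled controls were above DSS (adjusted p = 0.0377, with mice that overlapped), and the other 6 neighbouring pairs did not pass the threshold. Reg3g followed the same order, with IL-10 deficiency above TCT as the single neighbouring pair past the threshold (adjusted p = 0.0245 by edgeR). In the neighbouring pairs past the threshold, strain, genotype and treatment differ together by their labels and cannot be told apart. For Reg4 the order was Rag1-/- labelled control (563 CPM), Rag2-/- (466), DNBS (368), wild type (295), TRUC (211), IL-10 deficiency (183), anti-CD40 (180), DSS (139) and TCT (111), and no neighbours differed past the threshold. Per kilobase, Reg3b exceeded Reg4 in TRUC, at 1106 ± 224 against 210 ± 30.6 CPM per kb (SD, n = 4), whereas in the Rag2-/- controls Reg4 stood at 434 ± 53.8 and Reg3b at 0.210 ± 0.122 CPM per kb (SD, n = 3). Reg3b and Reg3g together took 0.976% of all counts in IL-10 deficiency mouse 4 and 0.0991% to 0.166% in TRUC.

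Across the 29 mice Reg3b and Reg3g followed each other, with a Pearson correlation of 0.988 on log2 CPM and 0.940 after the group means were removed. Reg3b and Reg4 had -0.471 over all mice and -0.522 within groups. The points of a group share a treatment and those of a model share its controls, so these are descriptions without a p. The genes whose level was most like that of Reg3b over the 29 mice were Reg3g, Tor2a (0.933, a torsin ATPase), Sec61b (0.932, a subunit of the translocon that carries proteins into the endoplasmic reticulum), Cdc34 (0.928, a ubiquitin-conjugating enzyme) and Lsm12 (0.923). Those most like Reg4 were Acsm3 (0.917, a medium-chain acyl-CoA synthetase), Fam171a1 (0.887), 5033404E19Rik (0.886), Jmjd8 (0.885) and Gm12320 (0.883). For Reg3g they were Reg3b, Tor2a (0.931), Gata3 (0.927, a transcription factor of T helper and innate lymphoid cells), Sec61b (0.921) and Mvp (0.920, the major vault protein). After the group means were removed, the correlations of the other 4 genes were 0.575 to 0.706 for Reg3b and 0.523 to 0.615 for Reg3g, and those of the 5 genes for Reg4 were 0.842 to 0.900.

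**Figure D3:**
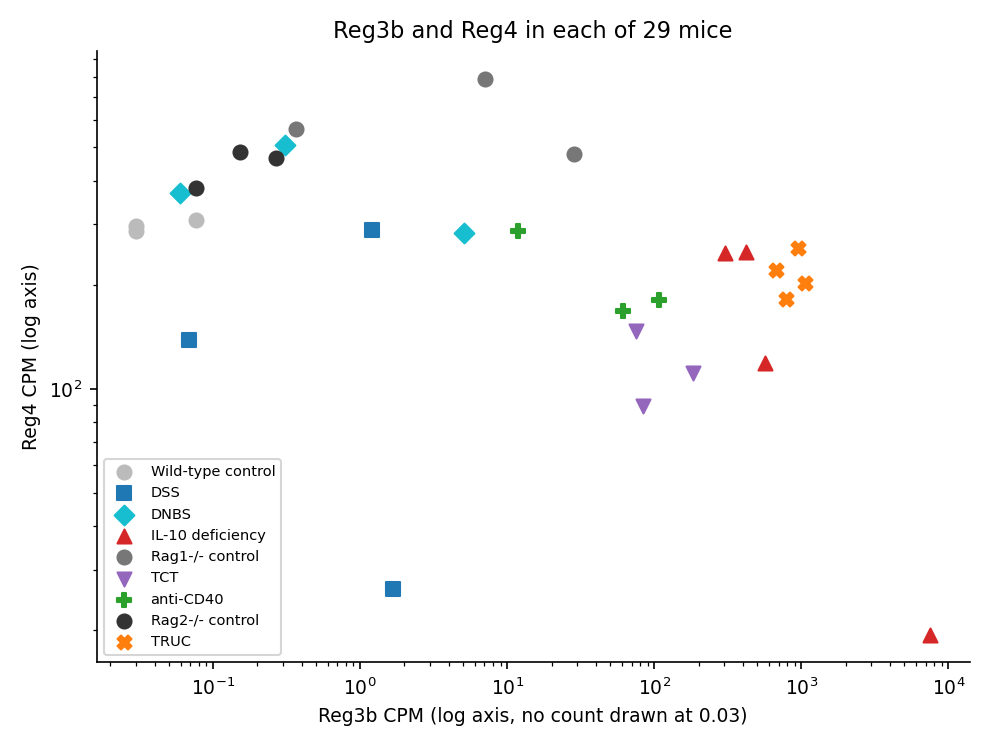
Reg3b (horizontal axis) against Reg4 (vertical axis) in each of the 29 mice, in CPM on logarithmic axes, with a colour and symbol for each group and mice without a Reg3b count drawn at 0.03. TRUC and IL-10 deficiency mice lie at high Reg3b, and the lowest Reg4 values, below 30 CPM, are DSS mouse 8 and IL-10 deficiency mouse 4.

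The balance between Reg3b and Reg3g could be compared in the models with enough counts, as the ratio of their counts. It was 1.53, 1.66, 1.91 and 1.67 in IL-10 deficiency and 1.53, 1.36, 1.58 and 1.54 in TRUC. TCT had 1.04, 0.932 and 0.588, and anti-CD40 had 2.78, 2.18 and 2.03. Among these 4 models the TCT mice were lowest and the anti-CD40 mice highest, and neither overlapped with the other models. Outside them, the libraries labelled Rag1-/- control had 3.35 and 3.30 in mice 2 and 4, DSS 1.19 and 0.438 in mice 5 and 8 and DNBS 1.25 in mouse 16. The 6 pairs of models were compared on the log2 ratio by two-sided exact permutation tests. The differences were 1.02 between IL-10 deficiency and TCT, -0.85 between TCT and TRUC and -0.45 between IL-10 deficiency and anti-CD40 (exact permutation p = 0.0571 for each, adjusted p = 0.0857), the smallest p that 4 against 3 mice allow. The difference was -1.47 between TCT and anti-CD40 (exact permutation p = 0.1, the smallest for 3 against 3). Between anti-CD40 and TRUC it was 0.62 (exact permutation p = 0.0571), and between IL-10 deficiency and TRUC 0.17 (exact permutation p = 0.0857). These tests were added after the data were seen, because in no control group did every mouse hold 10 counts of each gene.

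**Figure D4:**
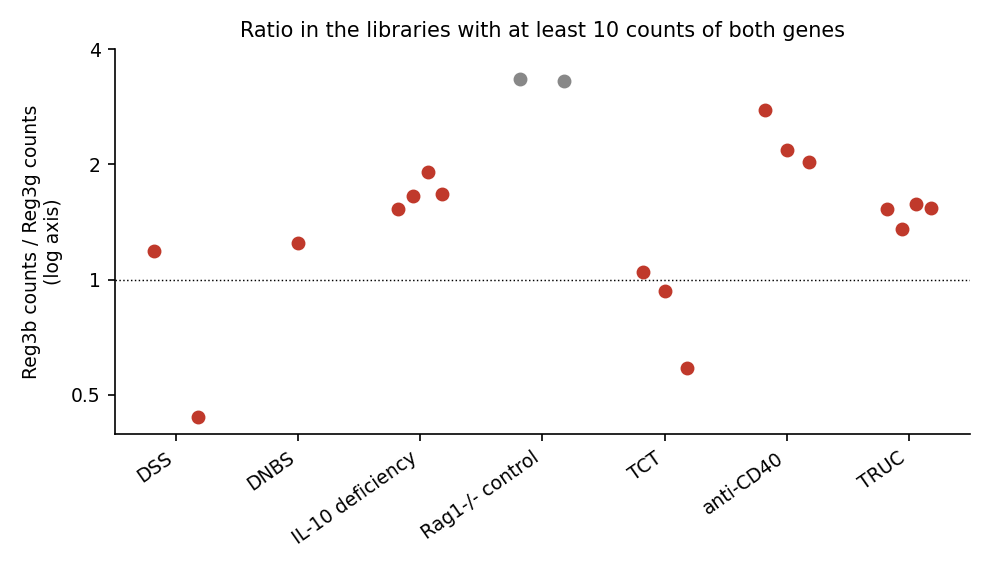
Reg3b counts divided by Reg3g counts (logarithmic axis) in each mouse with at least 10 counts of each gene, by group. TCT mice lie between 0.588 and 1.04, IL-10 deficiency and TRUC mice between 1.36 and 1.91 and anti-CD40 mice between 2.03 and 2.78, with a dotted line at 1.

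Levels of Il22, the known inducer of the Reg3 genes, are given beside those of Reg3b. The relation between them was not tested. In DSS, Il22 was at 1.89, 0.684 and 50.6 CPM in mice 5, 6 and 8, and had no count in the wild type mice, so that DSS was at least 210-fold above the limit. DSS mouse 8, which held 633 of the group's 673 Il22 counts, had 1.68 CPM of Reg3b. In TRUC, Il22 was 2.21, 1.87, 3.12 and 1.30 CPM, at 669 to 1068 CPM of Reg3b, so that DSS mouse 5 lay within and DSS mouse 6 below the TRUC mice in Il22. IL-10 deficiency mice held 0.506, 0.520, 0.601 and 0.523 CPM of Il22, with mouse 4, the highest in Reg3b, between the others. Il22 was called in DSS (adjusted p = 0.000601 by edgeR) and TRUC (adjusted p = 0.0259), and values in DNBS, IL-10 deficiency, TCT and anti-CD40 had adjusted p from 0.0741 to 0.263. The list named for the IL-22 and IL-23 axis held Il22, Il22ra2, Il23a, Il12b, Il17a, Il17f, Il6, Il11, Osm, Il1b, Tnf and Lif. It holds other inflammatory cytokines as well, so its counts do not measure that axis alone. Of these 12 genes, 10 were higher in DSS, where 17.7% of all genes were. In IL-10 deficiency and TRUC 7 each were higher (27.2% and 22.4% of all genes). In TCT 5 were higher (16.1%), in anti-CD40 3 (10.9%) and in DNBS 1 (3.95%). The list's median log2 fold change was 5.55, 2.83, 3.64, 3.15, 1.78 and 1.90 in that order. Where a gene with no control count entered at its bound instead, it was 5.46, 2.83, 3.18, 2.84, 1.62 and 1.16. The median over all genes tested was between -0.03 and 0.02. The summed level of the list was 1785 CPM in DSS mouse 8 and 102 and 128 CPM in mice 5 and 6, and without IL-10 deficiency mouse 4 the count in that model was 5 and the median 1.95. Il17a was called in DSS (at least 52.8-fold) and IL-10 deficiency (at least 14.2-fold), Il23a, a subunit of IL-23, was called in no model (log2 fold changes from -0.59 to 1.34), and Il22ra2, the soluble IL-22 decoy receptor, likewise (from -1.60 to -0.04), with an unadjusted p under 0.05 in TCT and anti-CD40.

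**Figure D5:**
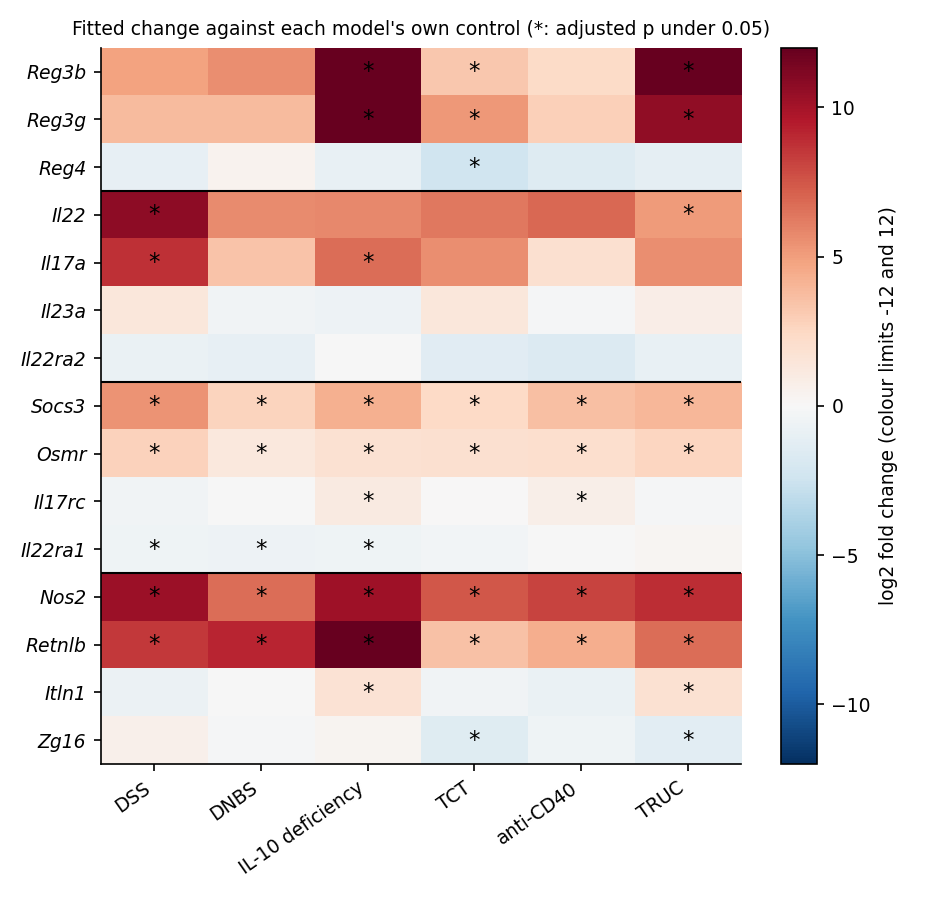
Fitted log2 fold changes (colour scale, limited at 12 in either direction) of 3 Reg genes and the named cytokine, receptor and STAT3, and antimicrobial genes in the 6 models against their own controls, with a star for an adjusted p under 0.05 by edgeR. Socs3, Osmr, Nos2 and Retnlb are called in all 6 models, and Il22 in DSS and TRUC.

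Among the receptor and STAT3 genes, Socs3, the STAT3-induced inhibitor of cytokine signalling, rose in all 6 models. It rose most in DSS (5.39 on the log2 scale), then in IL-10 deficiency (4.28), TRUC (3.94), anti-CD40 (3.63), DNBS (2.69) and TCT (2.43). The part of IL-22 in this rise was not tested. Osmr, the oncostatin M receptor, rose in all 6 by 1.23 to 2.75. Il22ra1, the epithelial receptor subunit for IL-22, fell slightly in DSS (-0.52), DNBS (-0.65) and IL-10 deficiency (-0.47) and did not pass the threshold elsewhere. Il17rc, a receptor subunit for IL-17, rose in IL-10 deficiency (1.10) and anti-CD40 (0.66). Of the 12 genes of the receptor and STAT3 list, 8 were higher and 1 lower in DSS (17.7% and 16.3% of all genes). In IL-10 deficiency 7 were higher and 2 lower (27.2% and 26.1%), and in DNBS 2 and 1 (3.95% and 2.21%). In anti-CD40, TCT and TRUC 5, 4 and 4 were higher (10.9%, 16.1% and 22.4%). With the Rag2-/- mice as control 1 was also lower in TCT, and without IL-10 deficiency mouse 4 the lower count there was 1. Their median log2 fold changes were 0.77, 0.48, 0.07, 0.25, 0.37 and 0.25 in that order.

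Of 15 other antimicrobial genes of the epithelium tested out of 16, 14 were higher in IL-10 deficiency, where 27.2% of all genes were. In DSS and in TRUC 10 were higher (17.7% and 22.4% of all genes). In anti-CD40 and in TCT 9 were higher (10.9% and 16.1%), and in DNBS 8 (3.95%). In TRUC, anti-CD40 and TCT 1 was lower, beside 23.4%, 10.7% and 14% of all genes. Medians were 4.90, 3.35, 2.77, 2.72, 2.44 and 2.86 on the log2 scale for these models in the order given. With the Rag2-/- mice as control, 3 were lower in TCT and 0 in anti-CD40. Nos2, the inducible nitric oxide synthase, rose in all 6 by 6.72 to 10.23, and Retnlb, a goblet cell protein that acts on bacteria, by 3.47 in TCT to 12.19 in IL-10 deficiency. Retnlb rose by 8.48 in DSS and 9.13 in DNBS. Itln1, intelectin, rose in IL-10 deficiency (1.72) and TRUC (1.80), and Zg16, a lectin of the mucus layer, fell in TCT (-1.47) and TRUC (-1.31).

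Reg4 was set beside markers of the cells known to make it. Of the 8 goblet and deep crypt secretory genes, 2 were lower in DSS, 2 in IL-10 deficiency, 4 in TCT, 1 in anti-CD40 and 4 in TRUC, and 3 were higher in IL-10 deficiency and 1 in TRUC. In DNBS 0 of them passed by edgeR and 2 had an unadjusted p under 0.05. Of all genes tested, 16.3% were lower in DSS, 26.1% in IL-10 deficiency, 14% in TCT, 10.7% in anti-CD40 and 23.4% in TRUC, so that 2 of 8 in DSS and in IL-10 deficiency and 1 of 8 in anti-CD40 lie near the share of all genes. Higher were 27.2% of all genes in IL-10 deficiency and 22.4% in TRUC. Without IL-10 deficiency mouse 4 the lower count of the 8 genes there was 1, and with the Rag2-/- mice as control it was 3 in anti-CD40. Kit, listed as a marker of deep crypt secretory cells, fell in IL-10 deficiency (-1.08), TCT (-0.98) and TRUC (-1.64). Which cells of bulk colon made Kit was not examined. Clca1, a goblet cell product, fell in IL-10 deficiency (-1.18), TCT (-1.96), anti-CD40 (-1.63) and TRUC (-3.98). Muc2, the main mucin of the colon, rose in IL-10 deficiency (1.53). Agr2, a chaperone of mucin, rose there (1.09) and in TRUC (0.60) and fell in DSS (-0.64). Of 8 enteroendocrine genes, 5 were higher in DSS (17.7% of all genes), 1 in DNBS (3.95%) and 2 in anti-CD40 (10.9%). In IL-10 deficiency 6 were lower (26.1% of all genes), in TCT 4 (14%) and in TRUC 1 (23.4%). Without IL-10 deficiency mouse 4, 2 were higher and 5 lower there, and with the Rag2-/- mice as control 1 was higher and 1 lower in anti-CD40. Chga, the secretory granule protein, fell in TCT (-1.25) and TRUC (-1.30), and Gcg, which encodes glucagon-like peptides, rose in DSS (1.94) and fell in TCT (-0.98). The part of these cells in the level of Reg4 was not tested.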

How the data were processed

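Colon RNA of 29 mice was sequenced after poly-A selection. The deposited values are unnormalized read counts of each gene, and the submitters' processing notes name Trimmomatic, HISAT2 and HTSeq with the GRCm38 build, with no versions. Symbols were found for 54409 of 54532 identifiers, and the 92 spike-in rows had a total of 0. Counts of genes with a mean of at least 3 were TMM-scaled and fitted with edgeR 4.0.16 (R 4.3.3) in 1 quasi-likelihood model of 9 groups without covariates. Adjusted p values are Benjamini-Hochberg over 18616 genes with a threshold of 0.05. The SE of a fitted log2 change is its absolute value divided by the square root of the F statistic of its test. It was not estimated from the fitted coefficient itself. The control of each model was fixed by the labels. CPM are TMM-scaled. Log2 CPM for correlations used a prior count of 2. Bounds use 3 counts over a group, and intervals are exact at 95% for counting error. The 33 pairs of libraries of a group had a chi-square per degree of freedom of 3.46 or more, so none were merged.

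The text names the 4 members, the other Reg genes, the 5 genes most like Reg3b, Reg3g and Reg4 by Pearson correlation, and of each gene list the 2 genes with the largest and the 2 with the smallest median change over the 6 models. Lists were genes of the IL-22 and IL-23 axis together with other inflammatory cytokines, IL-22 receptor and STAT3 genes, and antimicrobial genes. Further lists were markers of goblet, enteroendocrine, colon epithelial, small intestinal, pancreatic and neutrophil cells. The markers of small intestine in mouse 4 were chosen after their values were seen. Members and lists were chosen with earlier results of these data known. Sequences were aligned with Biopython 1.88. Scripts were tested on simulated counts. Alternatives, among them DESeq2 1.42.0, are given in the closing section.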

Additional observations from a re-analysis of the deposited data

Results flagged for a closer look

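In the IL-10 deficiency group, mouse 4 stood apart from the other 3 mice by Dixon's test at 95%. It held 7511 CPM of Reg3b, where the next mouse had 570 CPM, and 4487 CPM of Reg3g, where the next had 298 CPM. The gap to the nearest mouse was 0.963 and 0.973 of the group's range. For Reg3a it held 7.01 CPM and for the summed other Reg genes 3.87 CPM, against 0.0858 and 0.343 CPM in the next mouse. The summed markers of small intestine were 351 CPM, against 74.2 CPM. Only the 2 groups of 4 mice, IL-10 deficiency and TRUC, could be tested in this way, each for 15 quantities. Among these 30 sets of values 5 stood apart, where chance gives about 1 in 20, or 1.5. The 5 values come from 1 mouse, and their relation to each other was not tested. The change against the own control differed between the 6 models for Reg3b (adjusted p = 5.28e-07 by edgeR) and for Reg3g (adjusted p = 1.42e-06 by edgeR).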

How the results depend on the processing

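Depth limits the Reg3 genes in Balb/C controls and in the chemical models, where libraries held 0 to 60 counts, and Reg3a throughout. The cause of the shifts below was not tested. With no filter on low counts the difference between models passed for Reg3a (F = 4.99) and Reg4 (F = 3.98). With edgeR on the 2 groups alone, Reg3b in DSS (4.85), Reg3g (2.83) and Reg4 (-1.53) in anti-CD40 and Reg4 (-1.05) and Reg3a (5.51) in TRUC passed, and Reg3a in IL-10 deficiency (7.35) did not. With DESeq2, Reg3b in DSS (5.20), Reg3g in DNBS (4.13), Reg4 in anti-CD40 (-1.50) and Reg4 (-1.03) and Reg3a (4.96) in TRUC passed, Reg3b in TCT (3.25) did not, and no adjusted p was given for the 3 Reg3 genes in IL-10 deficiency. With wild type mice as control Reg4 in TCT (-1.35) did not pass, and with Rag2-/- mice as control Reg3b (8.47) and Reg3g (6.17) in anti-CD40 passed. With all 9 untreated mice as control, Reg3b in DSS (-2.03) and DNBS (-1.21) and Reg4 in DNBS (-0.22) reversed without passing, while Reg4 in DSS (-1.57) and IL-10 deficiency (-1.51), Reg3b (3.92) and Reg3g (4.27) in anti-CD40 and Reg3a in TRUC (5.53) passed. At an adjusted p under 0.01, Reg3a in IL-10 deficiency (7.42) and Reg3b in TCT (3.25) did not pass.

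With the replicate block, Reg4 (-1.10) and Reg3a (5.28) in TRUC passed, as they did by edgeR on the same 2 groups without it. Against that fit the block changed the call of Reg3a in IL-10 deficiency (7.63, adjusted p = 0.0133 by edgeR, and 0.123 without the block). Mice with the same number correlated at -0.0584 in TRUC and at -0.00644 to 0.0341 in IL-10 deficiency, so that the numbers did not pair the mice.

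With 1 mouse left out, the calls changed for Reg4 in DSS (-1.86 to -0.47, without DSS mouse 5), Reg3a in IL-10 deficiency (7.41 to 7.86, without wild type mouse 1 or 2), Reg3b in TCT (2.68 to 4.96), Reg3b (1.60 to 4.04) and Reg3g (1.92 to 4.45) in anti-CD40 and Reg3b between the Rag1-/- labelled and wild type controls (6.70 to 10.20). The difference between models ranged from F = 2.72 to 4.57 for Reg3a and from 1.86 to 4.48 for Reg4, both passing in some of these fits: Reg3a without IL-10 deficiency mouse 1, 2 or 3 and Reg4 without DSS mouse 5 or 8 or IL-10 deficiency mouse 1, 2 or 4. The calls of Reg3b and Reg3g in IL-10 deficiency and TRUC, and of Reg3g and Reg4 in TCT, were kept in every fit that left out 1 mouse.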

Other observations

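Of 6 neutrophil genes tested out of 8, 6 were higher in DSS and TRUC and 5 in each of the other 4 models. Across the 6 models, 3.95% (DNBS) to 27.2% (IL-10 deficiency) of all genes were called higher. Cxcr2, the neutrophil chemokine receptor, was at least 381-fold above the limit in DSS and at least 196-fold in TRUC, and S100a9, a calprotectin subunit, rose by 6.74 in anti-CD40 to 11.28 in DSS on the log2 scale. Retnlg, a resistin-like protein of neutrophils, rose in all models but anti-CD40 (2.72, adjusted p = 0.146 by edgeR), and Ly6g in DSS (1.85), anti-CD40 (1.52) and TRUC (1.68).

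Of 12 colon epithelial genes, 6 were higher and 1 lower in IL-10 deficiency (27.2% and 26.1% of all genes). In TRUC 3 were higher and 5 lower (22.4% and 23.4%), and in DSS 1 and 4 (17.7% and 16.3%). In TCT 1 was higher and 3 lower (16.1% and 14%), and in anti-CD40 2 and 1 (10.9% and 10.7%). In DNBS 0 were called by edgeR and 4 had an unadjusted p under 0.05. Krt20, a keratin of mature colonocytes, rose in all models but DNBS by 1.13 to 2.54, and Slc26a3, the chloride exchanger of surface colonocytes, fell in IL-10 deficiency (-1.48), TCT (-1.70) and TRUC (-2.24). Aqp8, a water channel, fell in DSS (-1.88) and TRUC (-2.38), and Cdx2, an intestinal transcription factor, rose in IL-10 deficiency (4.93) and fell in TCT (-2.56). Of 7 small intestinal genes tested out of 10, 5 were higher and 1 lower in IL-10 deficiency (27.2% and 26.1% of all genes). In TCT 1 was higher (16.1%), and 1 was lower in DSS (16.3%) and in TRUC (23.4%). Without IL-10 deficiency mouse 4, whose summed markers of small intestine stood at 351 CPM, 4 were higher and 1 lower there, and with the Rag2-/- mice as control 2 were higher and 2 lower in TCT. Alpi (4.80) and Fabp2 (3.39) rose in IL-10 deficiency. Fabp6, the ileal bile acid binding protein, rose there (1.54) and in TCT (2.37), and Rbp2 fell in DSS (-2.28) and IL-10 deficiency (-1.27).

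Of 4 pancreatic genes tested out of 10, 2 were lower in DSS, TCT, anti-CD40 and TRUC (16.3%, 14%, 10.7% and 23.4% of all genes). In IL-10 deficiency 3 were lower (26.1%). In IL-10 deficiency and in TRUC 1 was higher (27.2% and 22.4%), so that 1 of 4 lies near the share of all genes. Cela1 fell by 1.62 to 2.79 in all models but DNBS, and Clps by 1.36 to 3.36 in the same models. Prss2 rose in IL-10 deficiency, at least 5.04-fold above the limit of 3 counts over the controls (16 counts against 0), and in TRUC, where the ratio of the counts was 81.5 (95% interval 14.3 to 3249, counting error only). In addition, Cpb1 fell in IL-10 deficiency (-1.60).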
